A study of Mus musculus with 6 samples.

Results

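The 4 genes described here encode the intermediate filament proteins of mature neurons of the central nervous system: Nefl, Nefm and Nefh, the light, medium and heavy neurofilament subunits, and Ina, alpha-internexin. They were chosen by gene symbol, and 7 of the 45101 probe sets on the array had one of these symbols alone in the platform annotation (2 for Nefl, 1 each for Nefm and Nefh, 3 for Ina). The array as a whole named 18194 genes in this way. A probe set is a group of short probes for 1 transcript. Total RNA was profiled on 6 one-colour Affymetrix arrays. There were 3 arrays of Dap12-ko mice (samples 67, 68 and Ko1) and 3 of Dap12-het mice (75, 76 and 81), all 1 month old. Dap12, encoded by Tyrobp, is a signalling adaptor of microglia, and the heterozygous mice carry 1 working copy of it, so no array represents a brain with 2. The series design names midbrain, diencephalon and basal ganglia as the tissue, while the sample labels say only brain, and the labels of both groups call the source Dap12-deficient. Strain, sex and the nature of the deletion are not given in the sources used here. Nothing in the labels says that the samples were separate animals, and the p-values below therefore describe the spread between these samples, which may be technical.

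Neurofilaments are assembled from the light chain together with the medium and heavy chains, whose long tails project sideways from the filament and carry many phosphorylation sites. Alpha-internexin co-assembles with them in central axons and is made earlier in development. The filaments fill large myelinated axons, set their calibre and travel from the cell body by slow axonal transport. Light chain released into blood or cerebrospinal fluid is widely used as a marker of axonal damage.

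The arrays themselves differed between the groups. Tyrobp signals were 2.3, 23.7 and 12.9 on knockout 67, 68 and Ko1, against 70.7, 68.2 and 77.6 on heterozygous 75, 76 and 81, a log2 change of -1.68 ± 0.34 (SE; limma adjusted p = 0.0461). That call was lost in 9 of 16 alternative settings, and whether the probe set lies within the deleted part is not known from the sources used here. The 9 bacterial and phage hybridisation controls, which are not mouse transcripts, had all 3 knockout signals above all 3 heterozygous ones, with geometric means of 2037 to 4584 on knockout arrays and 550.9 to 604.5 on heterozygous arrays. The ratio of the 3′ to the 5′ control probe set, a sign of RNA quality, was 1.76 to 2.33 on knockout and 1.59 to 2.12 on heterozygous arrays for Actb, and 0.702 to 1.21 on knockout and 0.997 to 1.42 on heterozygous arrays for Gapdh. The ratio of the middle to the 5′ control probe set of Gapdh did not overlap, at 0.599 to 0.844 on knockout and 0.990 to 1.23 on heterozygous arrays. For every signal below, genotype and these array differences cannot be told apart.

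None of the 7 neurofilament and internexin probe sets differed between the groups beyond the spread of the arrays, although Nefm and one reading of Nefl were high on knockout 67 and 68. In limma, with an adjusted p threshold of 0.05 on log2(signal + 16), 0 of the 7 were called, and 0 had an unadjusted p under 0.05. With arrays centred on their medians over all probe sets, the median change of the 22518 probe sets tested moved to -0.41. In that setting 0 of the 7 were called and 4 had an unadjusted p under 0.05 (Nefh and the 3 of Ina, all lower). In the fit without centring, 2.07% of all 22518 probe sets tested were called (466, of which 297 were higher and 169 lower). In that fit 4772 of them had an unadjusted p under 0.05 (limma), so this level was common in these data. The matching count with centred arrays is not given here. All 7 passed the filter on level, and they ranked between 88.9% and 99.6% of the way up the probe sets of each array. The change was above 0 for 2 of them, Nefm and the brighter Nefl probe set, and below 0 for the other 5, against a median change of 0.00 over all probe sets tested. Each filament gene's signal in a bulk sample combines the number of neurons and the RNA per neuron, and fewer cells cannot be told apart from less RNA per cell.

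**Figure D1:**
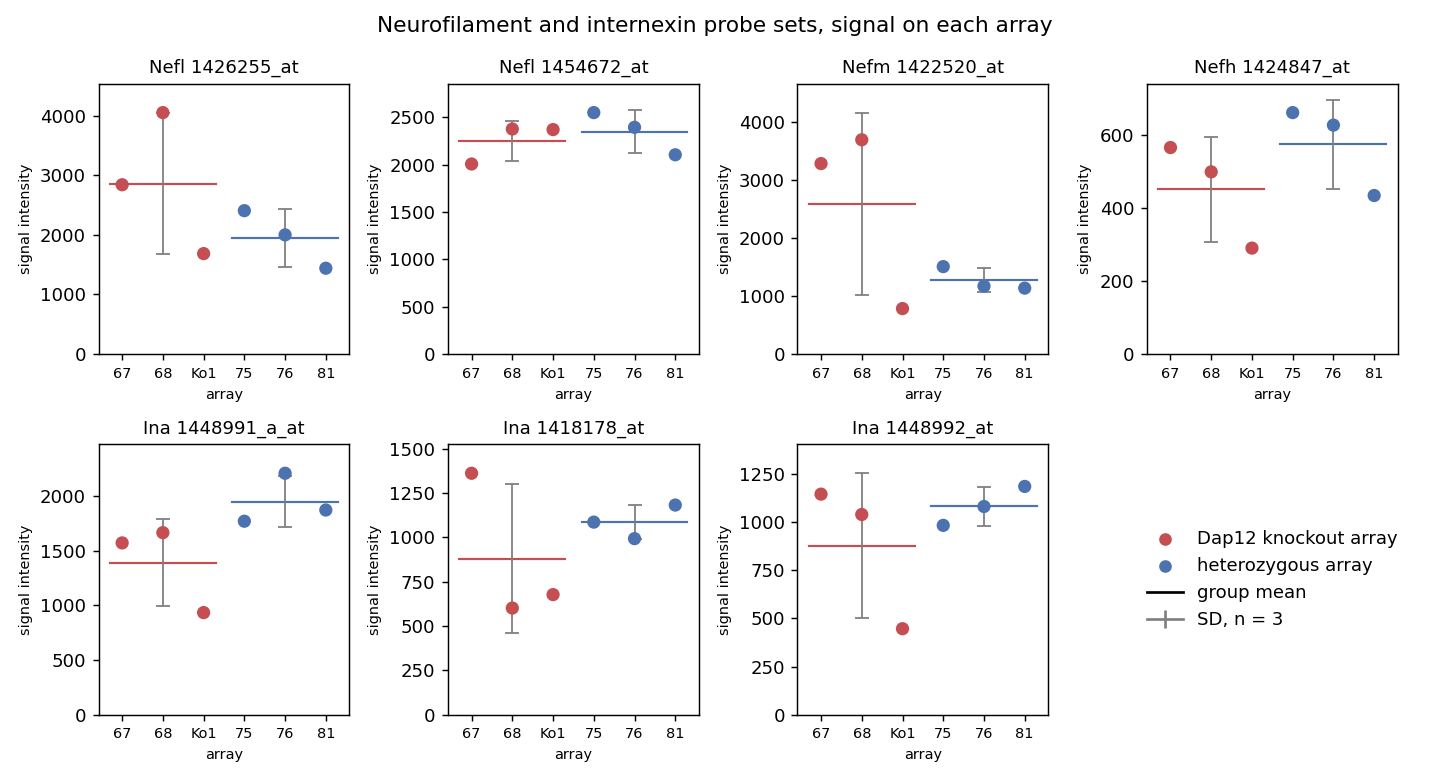
Signal intensity (vertical axes, linear, from 0) of each of the 7 probe sets on the 6 arrays, with knockout arrays in red at the left of each panel and heterozygous arrays in blue at the right. Horizontal lines are group means and bars are SD (n = 3). Nefm separates knockout 67 and 68 from the other 4 arrays, and Ina 1448991_a_at is the one panel in which the groups do not overlap.

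Nefl, the obligate light chain on which the other subunits assemble, was read by 2 probe sets that gave different pictures. The probe set 1426255_at had signals of 2844.2, 4056.8 and 1686.8 on knockout 67, 68 and Ko1, against 2408.7, 2001.6 and 1441.3 on heterozygous 75, 76 and 81. Knockout 67 and 68 stood above every heterozygous array, while knockout Ko1 fell among them. The means were 2863 ± 1185 on knockout and 1951 ± 485.8 on heterozygous arrays (SD, n = 3), a log2 change of 0.49 ± 0.32 (95% interval -0.23 to 1.22, limma adjusted p = 0.412).

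The second Nefl probe set, 1454672_at, had signals of 2006.9, 2376.4 and 2370.5 on knockout 67, 68 and Ko1, against 2549.8, 2394.4 and 2104.2 on heterozygous 75, 76 and 81. The groups overlapped throughout, and all 6 values lay close together. The means were 2251 ± 211.6 on knockout and 2349 ± 226.2 on heterozygous arrays (SD, n = 3), a log2 change of -0.06 ± 0.16 (95% interval -0.42 to 0.30, limma adjusted p = 0.859). Relative to the brighter probe set it changed by -0.55 on the log2 scale, with overlapping groups (exact permutation p = 0.3, two-sided; 0.8 adjusted over the 3 pairs of probe sets of 1 gene). With 3 arrays against 3 the smallest p such a test can give is 0.1. A high Nefl reading on knockout 67 and 68 was thus carried by 1 of the 2 probe sets.

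Nefm, the medium chain, varied more among the knockout arrays than any other probe set of the family. Its probe set 1422520_at had signals of 3276.9, 3686.2 and 781.4 on knockout 67, 68 and Ko1, against 1503.8, 1167.4 and 1133.3 on heterozygous 75, 76 and 81. Knockout 67 and 68 were the highest of the 6 arrays and knockout Ko1 was the lowest. On the log2 scale these knockout arrays lay 1.37, 1.54 and -0.68 from the heterozygous mean. The means were 2582 ± 1572 on knockout and 1268 ± 204.8 on heterozygous arrays (SD, n = 3), a log2 change of 0.74 ± 0.51 (95% interval -0.42 to 1.91, limma adjusted p = 0.439). The interval spans falls and rises alike, so these arrays do not fix the direction for Nefm. In the mouse assembly GRCm38.p6 of RefSeq, Nefm is the neighbour of Nefl, with 0 protein-coding genes between them.

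Nefh, the heavy chain, joins the filament late in development and has the longest tail, with repeated phosphorylation motifs. Its probe set 1424847_at had signals of 566.2, 499.5 and 290.4 on knockout 67, 68 and Ko1, against 662, 627.6 and 434.6 on heterozygous 75, 76 and 81. Knockout Ko1 was the lowest array and heterozygous 81 the next, and knockout 67 and 68 lay between the heterozygous values. The means were 452 ± 143.9 on knockout and 574.8 ± 122.6 on heterozygous arrays (SD, n = 3), a log2 change of -0.37 ± 0.28 (95% interval -1.01 to 0.27, limma adjusted p = 0.49).

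Ina was lower in mean on the knockout arrays by all 3 of its probe sets, without a call. Its brightest, 1448991_a_at, had signals of 1573, 1667 and 934.7 on knockout 67, 68 and Ko1, against 1771.7, 2211 and 1874.4 on heterozygous 75, 76 and 81. Every knockout array lay below every heterozygous array, as was the case for 12.5% of all probe sets tested, and knockout Ko1 lay farthest below. The means were 1392 ± 398.5 on knockout and 1952 ± 229.8 on heterozygous arrays (SD, n = 3), a log2 change of -0.52 ± 0.24 (95% interval -1.06 to 0.02, limma adjusted p = 0.249), and an exact permutation test over the 6 arrays gave its minimum of 0.1.

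The other Ina probe sets overlapped between the groups. The probe set 1448992_at had signals of 1145.4, 1039.6 and 446.4 on knockout 67, 68 and Ko1, against 983.2, 1081.2 and 1185.5 on heterozygous 75, 76 and 81, so that only knockout Ko1 stood low. The probe set 1418178_at had 1360.6, 600.8 and 676.6 on knockout 67, 68 and Ko1, against 1085.2, 992 and 1181.4 on heterozygous 75, 76 and 81. Here knockout 67 was the highest array, while knockout 68 and Ko1 were the lowest. Their log2 changes were -0.41 ± 0.33 (limma adjusted p = 0.512) and -0.39 ± 0.29 (limma adjusted p = 0.477). Set against 1448991_a_at, neither changed unequally beyond the spread of the arrays (differences of 0.12 and 0.13 on the log2 scale, exact permutation p = 0.7 and 0.8).

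**Figure D2:**
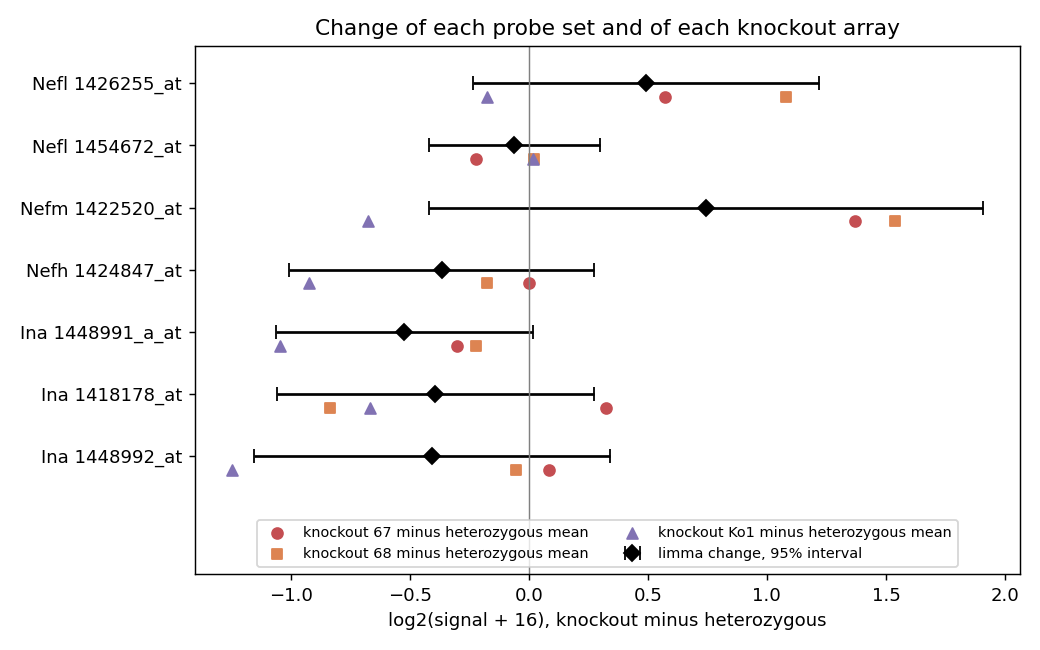
Log2 change of each probe set (horizontal axis, knockout minus heterozygous, on log2(signal + 16)), with black diamonds for the limma estimate and its 95% interval and coloured symbols for each knockout array minus the heterozygous mean. All 7 intervals hold 0, and for Nefm knockout 67 and 68 lie above 1.3 while knockout Ko1 lies at -0.68.

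The knockout arrays disagreed with each other about these genes more than the heterozygous arrays did. The SD of the log2 signal was 0.14 to 1.23 over the knockout arrays and 0.12 to 0.37 over the heterozygous arrays, and it was the larger on knockout arrays for 6 of the 7 probe sets. Over all probe sets tested the median SD was 0.37 on knockout and 0.19 on heterozygous arrays. Knockout Ko1 had the lowest signal of the 6 arrays for 4 of the 7 probe sets (Nefm, Nefh and 2 of Ina). Across all 3 knockout arrays, brightness classes drawn after the data were seen had median changes of -0.14 over 1579 probe sets with mean signals of 500 to 1000, -0.03 over 757 with 1000 to 2000, and 0.18 over 355 with 2000 to 4000. The brighter classes thus lay higher on knockout arrays, and both Nefl probe sets are in the brightest of these. In that class the medians were 0.13, 0.19 and 0.34 on knockout 67, 68 and Ko1. The shift was largest on knockout Ko1, where Nefl 1426255_at lay at -0.18 from the heterozygous mean, against 0.57 and 1.08 on knockout 67 and 68. Its part in the Nefl values was not tested.

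Leaving out arrays decided which filament genes were called. Without knockout Ko1, 2 of the 7 probe sets were called higher, against 12.7% of all probe sets, and 0 lower (limma). Nefm then rose by 1.45 ± 0.15 on the log2 scale (adjusted p = 0.00101) and Nefl 1426255_at by 0.83 ± 0.23 (adjusted p = 0.0318), while Nefl 1454672_at was at -0.10 ± 0.13 (adjusted p = 0.599). Without knockout Ko1 and heterozygous 81 together, an alternative chosen once the data had been seen, the same probe sets were called, at 1.38 ± 0.15 for Nefm (adjusted p = 0.00192) and 0.63 ± 0.18 for Nefl (adjusted p = 0.0441), against 11.4% of all probe sets called higher.

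With knockout 67 and 68 left out, Nefm and Nefl 1426255_at lay below 0, while Nefh and the 3 Ina probe sets, already below 0, lay farther below it. Knockout Ko1 alone was here set against the 3 heterozygous arrays and assumed to vary as they did. In that fit 2 of the 7 probe sets were called lower, against 1.67% of all probe sets, and 0 higher (limma). Both belonged to Ina, 1448992_at at -1.25 ± 0.17 (adjusted p = 0.0296) and 1448991_a_at at -1.04 ± 0.16 (adjusted p = 0.0373). Nefm was at -0.68 ± 0.20 (adjusted p = 0.114) and Nefh at -0.92 ± 0.26 (adjusted p = 0.11). When arrays were weighted by their agreement with the model, with a weight of 0.219 for knockout Ko1, the lowest of the 6, and 0.556 and 1.34 for knockout 67 and 68, Nefm was called higher (1.19, limma adjusted p = 0.0155), against 11.5% of all probe sets.

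**Figure D3:**
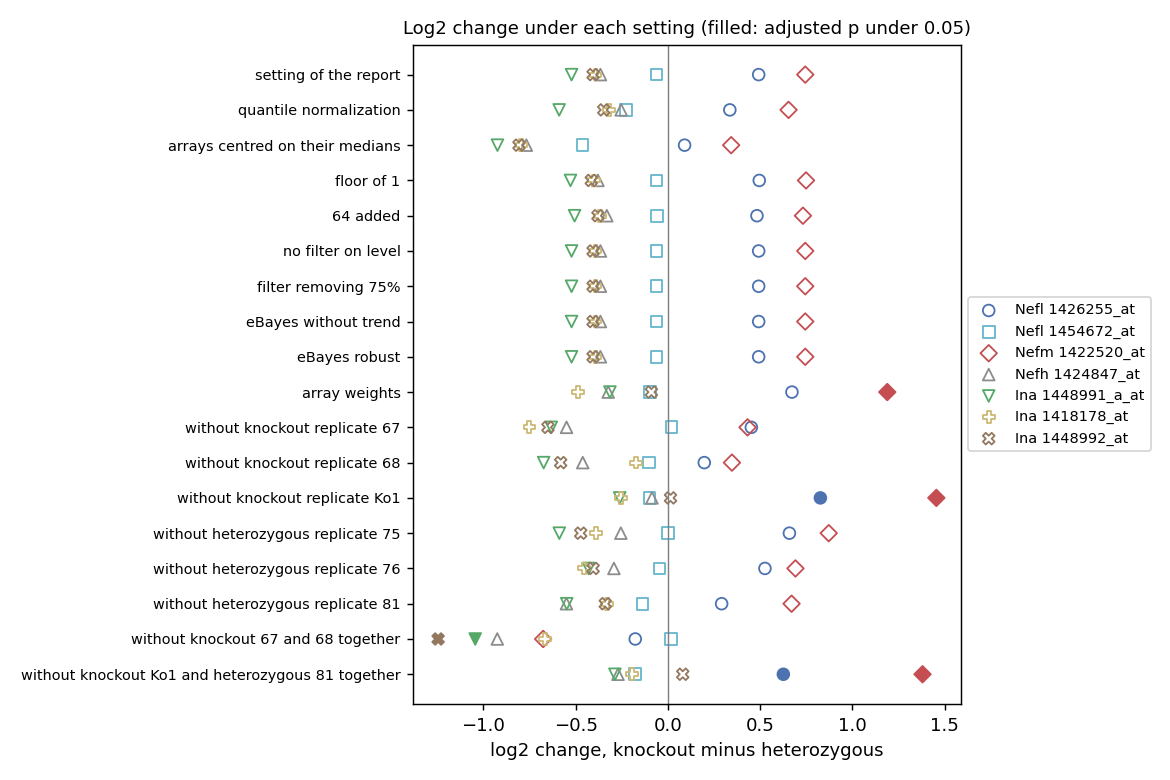
Log2 change (horizontal axis, knockout minus heterozygous) of the 7 probe sets under each setting (rows), with filled symbols where the limma adjusted p was under 0.05. Filled symbols stand for Nefm and Nefl 1426255_at without knockout Ko1, with or without heterozygous 81, for Nefm with array weights, and for 2 Ina probe sets at the left when knockout 67 and 68 were left out.

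Markers of some brain regions set knockout Ko1 and heterozygous 81 apart from the other arrays, while those of other regions did not. Summed signals of 7 striatal genes tested were 666.8, 1226 and 7801 on knockout 67, 68 and Ko1, against 2314, 1810 and 6951 on heterozygous 75, 76 and 81. Knockout Ko1 and heterozygous 81 were thus the high arrays, and the same 2 arrays were lowest for Nefm, Nefh and Nefl 1426255_at. The other 4 probe sets did not follow this division: heterozygous 81 was the highest array for Ina 1448992_at and next to highest for the other 2 of Ina, and knockout Ko1 was not among the lowest for Nefl 1454672_at. For 6 thalamic genes the sums were 4460, 4645 and 1308 on knockout 67, 68 and Ko1, against 4280, 5593 and 2750 on heterozygous 75, 76 and 81. For 5 genes of midbrain dopamine and serotonin neurons they were 1132, 878.7 and 360.3 on knockout 67, 68 and Ko1, against 1432, 1236 and 422.7 on heterozygous 75, 76 and 81. Knockout Ko1 and heterozygous 81 were the low arrays for both. They were the highest for the sum of 3 hindbrain and motor neuron genes, at 242.5 and 253.1, but the signals were low. Isl1 made up much of these sums, at 61.7, 48.3 and 154.8 on knockout 67, 68 and Ko1, against 80.6, 132 and 187.3 on heterozygous 75, 76 and 81. Hoxa5 did not follow the division, at 82.1, 73.4 and 76.3, against 37.5, 51.5 and 46.4, in the same order of arrays. Cortical and hippocampal sums were 1164, 373.3 and 508.2 on knockout 67, 68 and Ko1, against 536.8, 584.3 and 1184 on heterozygous 75, 76 and 81. Hypothalamic sums were 1383, 858.1 and 2212, against 2414, 3529 and 2624, in the same order of arrays. Neither of these lists followed the division. The part of regional make-up in the neurofilament values was not tested.

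Among cell types of the white matter, 2 of 10 mature oligodendrocyte genes rose (limma; 4 at an unadjusted p under 0.05, as were 4772 of all 22518 probe sets tested), against 1.43% of all 11446 genes on their brightest probe set. They were Mbp, myelin basic protein (1.85 ± 0.35 on the log2 scale, limma adjusted p = 0.0388), and the myelin proteolipid gene Mal (0.73 ± 0.15, adjusted p = 0.0457). The summed signal of the 10 genes was 68590, 54080 and 29750 on knockout 67, 68 and Ko1, against 22130 to 23220 on heterozygous arrays, so knockout 67 and 68, where Nefm was high, were the highest here too. Mbp alone made up 36155.6, 24722 and 11664.1 of the knockout sums. Knockout Ko1, where Nefm was lowest, also lay above every heterozygous array in this sum. Of 10 general neuronal genes 0 passed (limma; 4 at an unadjusted p under 0.05), with a median change of 0.09 and sums of 24500, 25340 and 19460 on knockout 67, 68 and Ko1, against 18950 to 19470 on heterozygous arrays. Snap25, a SNARE protein of transmitter release, was at 0.88 (adjusted p = 0.0511) and Rbfox3, which encodes NeuN, at 0.93 (adjusted p = 0.0576). Their part in the neurofilament values was not tested.

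Of the other cell-type lists, 2 of 8 hypothalamic genes fell (limma; 5 at an unadjusted p under 0.05), beside the same 1.43% of all genes. They were Dlk1, an imprinted Notch ligand (-1.12 ± 0.18, limma adjusted p = 0.0283), and Baiap3 (-1.68 ± 0.31, adjusted p = 0.0388), and the list's median was -1.03. Quantile normalization left 0 calls among the hypothalamic and among the oligodendrocyte genes, as did 5 of the 6 single omissions, all but that of knockout Ko1, which gave 6 and 7 (limma). Among all 22518 probe sets tested, quantile normalization left 126 calls and those 5 omissions 0 to 29, so 0 in a list was nearly fixed there. The omission of knockout Ko1 gave 5433. In limma 0 of 8 astrocyte genes (2 at an unadjusted p under 0.05, median -0.11, sums of 13950 to 15620 on knockout and 10800 to 12930 on heterozygous arrays) and 0 of 9 microglial genes (3 unadjusted, median 0.38, sums of 3157 to 3506 on knockout and 2205 to 2578 on heterozygous arrays) passed. The count was also 0 for 7 striatal (0 unadjusted, median -0.48), 6 thalamic (1, -0.07), 5 midbrain (1, -0.21), 4 cortical and hippocampal (1, 0.10) and 3 hindbrain and motor neuron genes (1, 0.19). The median over all genes on their brightest probe set was -0.09. Of the hindbrain and motor neuron list Chat, Slc5a7, Slc6a5 and Hoxb5 were too dim to be tested, as were Tph2, En1 and Pitx3 of the midbrain list and Tbr1 and Emx1 of the cortical list.

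The subunits were then compared with each other within an array, and no pair passed the test. Over the 6 arrays log2 signals of Nefl 1426255_at and Nefm varied together (Pearson r = 0.901, a description), as did those of Nefh and Ina 1448991_a_at (0.831). For each pair of genes, on its brightest probe set, the difference of log2 signals was set against its heterozygous mean, so that a scale factor of the whole array cancels. A shift that depends on brightness does not cancel. Of the brightness classes above, Nefl is in that with a median change of 0.18, Nefm and Ina in that with -0.03, and Nefh in that with -0.14. The part of brightness in these differences was not tested. Nefl minus Nefh stood at 0.57, 1.26 and 0.75 on knockout 67, 68 and Ko1, against 0.11, -0.08 and -0.03 on heterozygous 75, 76 and 81. The groups did not overlap, with a difference of 0.86. Nefl minus Ina stood at 0.87, 1.30 and 0.87 on knockout 67, 68 and Ko1, against 0.47, -0.12 and -0.35 on heterozygous 75, 76 and 81, a difference of 1.01 without overlap. Nefm minus Nefh also did not overlap, by a narrow margin, with 0.25 on knockout Ko1 as the lowest knockout value and 0.22 on heterozygous 81 as the highest heterozygous one (difference 1.11).

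In each of these 3 pairs the exact permutation p was 0.1, the smallest possible, and 0.2 adjusted over the 6 pairs. The pairs reuse the same probe sets and are not separate observations. Groups without overlap were common: of 22518 single probe sets tested, 3408 were higher on every knockout array and 2819 lower. The share over pairs of other genes was not computed. By the same exact permutation test, the other differences were 1.27 for Nefm minus Ina (p = 0.2), -0.25 for Nefl minus Nefm (p = 0.6) and 0.16 for Nefh minus Ina (p = 0.5), all with overlapping groups. With Nefl read by 1454672_at, a choice added after the data were seen, Nefl minus Nefh was 0.30 (exact permutation p = 0.7) and Nefl minus Ina 0.46 (p = 0.3), both overlapping. The separation of Nefl from Nefh and Ina therefore rests on 1 of its 2 probe sets.

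**Figure D4:**
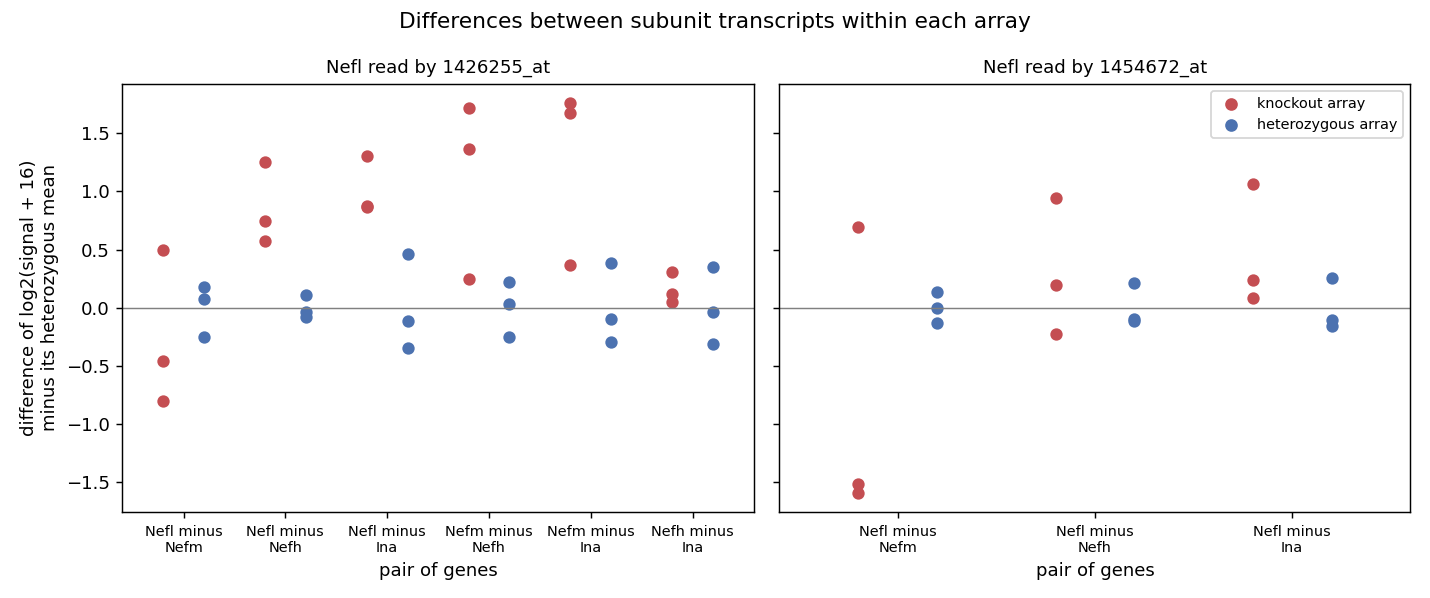
Difference of log2(signal + 16) between 2 genes on the same array, minus the mean of that difference over heterozygous arrays (vertical axis), with knockout arrays in red at the left of each pair and heterozygous arrays in blue. At the left Nefl is read by 1426255_at and 3 of 6 pairs, which reuse the same probe sets, do not overlap between the groups. At the right, where it is read by 1454672_at, all 3 pairs overlap. The share without overlap over pairs of other genes was not computed.

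Among the lists of filament and axon biology 1 gene was called, Tuba1a, of the 13 tested in the axonal microtubule and growth cone list, beside 1.43% of all 11446 genes. The numbers tested in the other lists are given below. For the unadjusted counts below, 4772 of all 22518 probe sets tested had an unadjusted p under 0.05 (limma). Of 8 other intermediate filament genes tested 0 passed (limma; 3 at an unadjusted p under 0.05; median -0.19). Prph, peripherin, a partner of the neurofilaments in peripheral and some central neurons, was dim, and 2 of its 4 probe sets were tested. The brighter read 31.2, 50.7 and 139.7 on knockout 67, 68 and Ko1, against 15.2, 41.8 and 16.2 on heterozygous 75, 76 and 81 (1.03 ± 0.46, limma adjusted p = 0.246). Vim, vimentin, was at -0.58 ± 0.23 on its brightest probe set (adjusted p = 0.2), and its other 2 probe sets were at -0.05 and 0.57. Gfap, the filament of astrocytes, stood at -1.25 ± 0.52 (adjusted p = 0.215), with -1.28 and 0.62 on its other 2 probe sets, and Nes, nestin of neural precursors, at 1.24 ± 0.37 (adjusted p = 0.108).

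Of 10 genes of filament linkers and slow transport motors 0 passed (limma; 3 unadjusted; median -0.30). Dync1h1, the heavy chain of cytoplasmic dynein, read 689.2, 649.6 and 419 on knockout 67, 68 and Ko1, against 1129, 1107.8 and 1405.5 on heterozygous 75, 76 and 81. All knockout arrays were the lower, with a change of -1.05 ± 0.23 (limma adjusted p = 0.0547), just short of the threshold. Its partner Dctn1, a dynactin subunit, was at -0.46 (adjusted p = 0.198). Of 13 kinase and phosphatase genes of the neurofilament tails 0 passed (limma; 3 unadjusted; median 0.06), with Ppp2r1a, the scaffold of protein phosphatase 2A, at 0.65 (adjusted p = 0.0663) and the kinase Csnk1a1 at 0.60 (adjusted p = 0.12).

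Of 5 genes of filament turnover and mRNA binding 0 passed (limma; 2 unadjusted; median -0.10). Trim2, a ubiquitin ligase that binds the light chain in mice, was at 0.87 (adjusted p = 0.0922) and Stub1, a chaperone-linked ubiquitin ligase, at -0.68 (adjusted p = 0.104). Of 12 genes of the axon initial segment and node 0 passed (limma; 2 unadjusted; median -0.09), with the adhesion protein Cntn1 at 0.63 (adjusted p = 0.19) and Ank3, ankyrin G, at -1.02 (adjusted p = 0.196). Of 13 genes of axonal microtubules and growth cones 1 rose and 0 fell (limma; 5 unadjusted; median -0.14). This was Tuba1a, an alpha-tubulin, at 7139.3, 6326.3 and 6736 on knockout 67, 68 and Ko1, against 3678.6, 3689.8 and 3795.8 on heterozygous 75, 76 and 81 (0.85 ± 0.13, adjusted p = 0.0262). The probe set is of the type whose probes can also match related sequences, so other tubulins may contribute. The probe sets of Trim2 and Ppp2r1a are of the same type. Dpysl3, a growth cone protein, was at -0.92 (adjusted p = 0.0875). This list too held 0 calls with quantile normalization and in 5 of the 6 single omissions, and 6 without knockout Ko1 (limma). Those 5 omissions left 0 to 29 calls among all 22518 probe sets tested, so 0 in a list was nearly fixed there. Without knockout Ko1 5433 of them were called. Over all 16 lists, those of cell types and regions included, 5 of 156 entries were called, beside 1.43% of all genes. Not all of the 156 were tested.

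**Figure D5:**
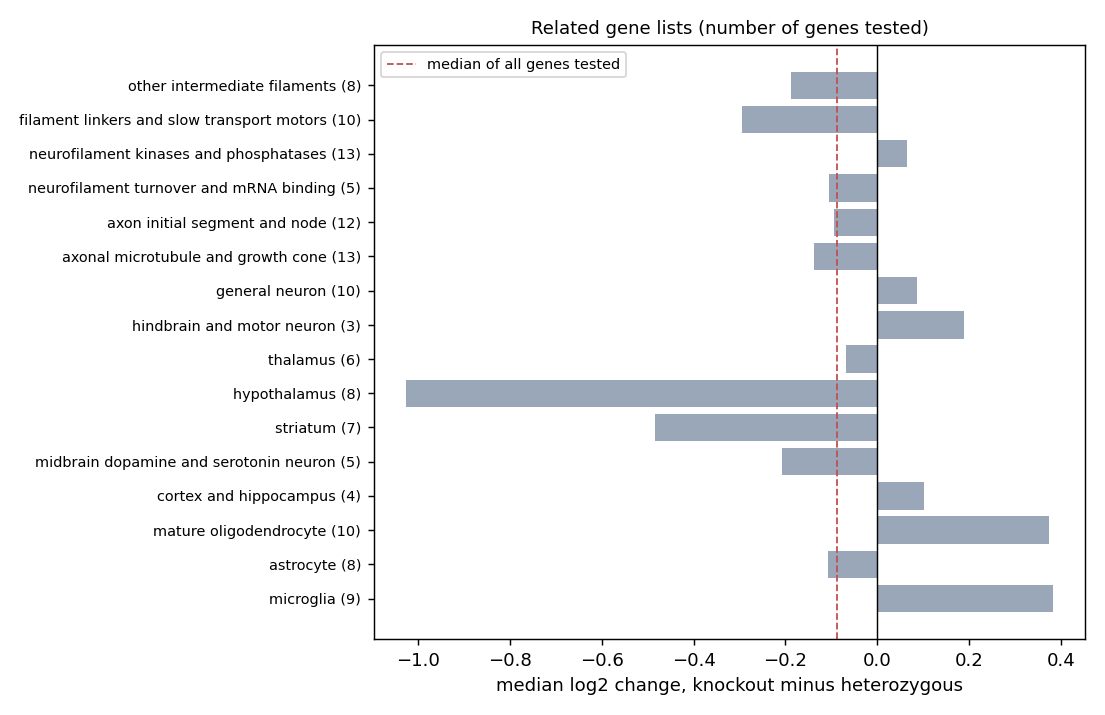
Median log2 change (horizontal axis, bars from 0, knockout minus heterozygous) of each of 16 gene lists on the brightest probe set of each gene, with the number of genes tested in brackets and the median of all 11446 genes at -0.09 as a dashed line. The 6 lists of filament and axon biology lie between -0.30 and 0.06, and the hypothalamus list lies lowest at -1.03.

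The genes whose values most resembled each filament gene over the 6 arrays were taken by Pearson correlation of log2 signals among 11445 other genes, as a description with no test. Nefl 1426255_at was most like Pfdn2, a prefoldin subunit (r = 0.994), Herpud1, an endoplasmic reticulum stress protein (0.993), and Sdad1 (0.992). Pfdn2 read 1081.1, 1412.5 and 755.1 on knockout 67, 68 and Ko1, against 1021.2, 835.3 and 705.9 on heterozygous 75, 76 and 81, and so shared the high values on knockout 67 and 68. Nefm was most like A230009B12Rik (0.995), Rrp1 (0.994) and Tecr, an enzyme of very long chain fatty acid synthesis (0.994). Nefh was most like Itga3, an integrin subunit (0.994), B3gat3 (0.993) and Itpkb, an inositol trisphosphate kinase (0.991), and Ina was most like Sema6d, a semaphorin (0.997), Oplah (0.990) and Tox2 (0.990). Each r rests on 6 points, the highest of 11445 values were taken, and the points share the differences between arrays given above.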

How the data were processed

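Total RNA from Dap12-ko and Dap12-het mouse brain was measured on 6 one-colour Affymetrix arrays, with Trizol and RNeasy extraction and one-cycle biotin labelling, per the labels' protocols. The deposited values are linear signal intensities from GCOS, per the submitters' processing notes. Its version and summary algorithm are not given in the sources used here. On each array the 2% trimmed mean of the intensity values was 100, so each had been scaled as a whole. Of 45101 probe sets, 64 were controls, and 34945 had 1 gene symbol, 932 several and 9160 none in the platform annotation.

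Signals were transformed as log2(signal + 16), which understates changes of dim probe sets. Non-control probe sets with a mean signal above the median (22518) were fitted together in R 4.3.3 by limma 3.58.1, with group as the only term, eBayes with a trend and two-sided p-values adjusted by Benjamini-Hochberg over all of them. Errors of log2 changes are SE and errors of signals are SD. Differences within arrays were tested by exact permutation. The procedure was tested on simulated data. Arrays give no count depth, so their number limits the precision.

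The genes and lists were chosen with earlier results of these data known. Named were Tyrobp, every filament probe set, the 3 genes most like each, list members past the threshold, the 2 with the smallest p in each list, Prph, Vim, Gfap, and the Gapdh and Actb controls. The brightest probe set stood for a gene in lists. Of 156 list entries, those whose symbol no single-symbol probe set carried were not analysed here.

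Alternatives were quantile normalization, centring arrays on medians, a floor of 1, 64 added, no filter, a filter removing 75%, eBayes without trend or robust, array weights, and leaving out each array, or knockout 67 and 68. Added after the data were seen were the other Nefl probe set and omission of knockout Ko1 with heterozygous 81.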

Additional observations from a re-analysis of the deposited data

Results flagged for a closer look

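The hybridisation controls, which the comparison did not use, were higher on the knockout arrays. The lowest knockout array, Ko1, had a geometric mean 3.37 times that of the highest heterozygous array, 81. All 9 controls were higher on each knockout array than on each heterozygous array. Their part in the neurofilament values was not tested.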

How the results depend on the processing

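No paired analysis was possible because the labels give the groups no shared replicate numbers. Centring arrays on their medians over all probe sets moved the median change of the 22518 probe sets tested to -0.41. In that setting 578 of them were called. Nefm (0.34), Nefl 1426255_at (0.09), Nefl 1454672_at (-0.46), Nefh (-0.77) and Ina (-0.92, -0.79 and -0.81) stood above or below that shift as in the values reported. Of these 7, none was called and 4 had an unadjusted p under 0.05 (limma, lowest adjusted p 0.0528, Ina 1448991_a_at). Nefh and Ina 1418178_at and 1448991_a_at kept their sign under every setting run, and only the last of them was called, under 1 setting. The number of neurofilament probe sets called higher was 1 with array weights and 2 without knockout Ko1, with or without heterozygous 81, and ranged from 0 to 2 over single omissions, against 0 as reported. The number called lower was 2 without knockout 67 and 68, where 5 had an unadjusted p under 0.05.

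Signs turned as follows, none with a call. Without knockout 67 and 68 Nefm was at -0.68, Nefl 1426255_at at -0.18 and Nefl 1454672_at at 0.017, the difference between the Nefl probe sets at 0.19, that of Ina 1448992_at from 1448991_a_at at -0.20 and Nefl minus Nefm at 0.50. Without knockout Ko1 and heterozygous 81, Ina 1448992_at was at 0.081. Over single omissions Nefl 1454672_at ranged from -0.14 to 0.019, Ina 1448992_at from -0.65 to 0.014, its difference from 1448991_a_at from -0.018 to 0.28, that of 1418178_at from -0.12 to 0.50, Nefl minus Nefm from -0.63 to 0.021, and Nefh minus Ina from -0.0016 to 0.33.

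Without a filter 124 of 45037 probe sets were called. Of 22518 probe sets 126 were called with quantile normalization, 172 without trend, 4971 with array weights, 4790 without knockout Ko1 and heterozygous 81, and 0 to 5433 over single omissions, with 0 (limma) without any 1 of knockout 67, knockout 68, heterozygous 75 and heterozygous 81, 29 without heterozygous 76 and 5433 without knockout Ko1. List genes called numbered 0 with quantile normalization (limma), 10 with arrays centred on medians, 1 without a filter or trend, 37 with array weights, 16 without knockout 67 and 68, 46 without knockout Ko1 and heterozygous 81, and 0 to 47 over single omissions, against 5. Tyrobp lost its call with quantile normalization (-1.81), a floor of 1 (-3.02), no filter (-1.68) and no trend (-1.68), and ranged from -1.94 to -1.38 over single omissions, of which all but that of knockout Ko1 ended the call. The cause of these shifts was not tested.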
